A study of Mus musculus with 12 samples.

Results

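Mouse embryonic fibroblasts treated with AMN107 alone were compared directly with the same kind of cells treated with interferon-alpha (IFNa) alone. The comparison uses 4 of the 12 arrays of the series, chosen by title: 2 labelled AMN107 and 2 labelled IFNa. AMN107 is nilotinib, a small-molecule inhibitor of the ABL tyrosine kinases that also binds KIT, the PDGF receptors and the discoidin domain receptors DDR1 and DDR2. All cells of the series were grown in the same serum-containing medium, and no genotype, strain or passage is given for them. The IFNa cells received interferon for 6 h. For AMN107 neither the dose nor the duration is stated, and the sources used here do not say whether the IFNa cells also received DMSO, the vehicle. The other arrays used below are 2 each of DMSO, IFNg (interferon-gamma, 6 h), AMN107-IFNa and AMN107-IFNg, the last 2 groups having received AMN107 before the interferon. Both arrays of a group are labelled as biological replicates, but separate embryos or cultures are not mentioned, so p-values measure only the spread between these arrays.

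Type I interferons bind the IFNAR receptor on nearly every cell, which activates the kinases JAK1 and TYK2. Signalling from them assembles the factor ISGF3, of which STAT2 and IRF9 are parts. This complex binds the interferon-stimulated response element (ISRE) near the start of antiviral genes, among them the Ifit, Oas and Mx families, and of feedback genes such as Usp18. Another element, GAS, serves mostly the interferon-gamma response.

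Both strands of RefSeq promoters were searched (GRCm38.p6, 250 bases before to 50 after the annotated start). The ISRE core was taken as GAAA, any 2 bases and GAAA again. It was found in 3.99% of the 27025 genes of the promoter table and 3.46% of the tested genes that have one there, in 12 of 24 antiviral effectors and in 6 of 7 interferon-inducible GTPases. The sequences below stand for genes that were high with both agents (Ifit3, Igtp, Irgm1), higher with AMN107 (Ifit1, Rsad2) or higher with IFNa (Gbp2, Gbp3, Trim30a). They read 5′ to 3′ on the gene's strand, with every match to the core in capitals; on the opposite strand the core reads TTTC, any 2 bases and TTTC. In Irgm1 and Gbp3 2 matches overlap.
Ifit3, chr19:34583353-34583436, plus strand: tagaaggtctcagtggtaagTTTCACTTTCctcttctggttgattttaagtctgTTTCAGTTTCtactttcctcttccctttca
Igtp, chr11:58199502-58199551, plus strand: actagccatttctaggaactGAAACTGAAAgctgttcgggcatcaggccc
Irgm1, chr11:48871415-48871470, minus strand: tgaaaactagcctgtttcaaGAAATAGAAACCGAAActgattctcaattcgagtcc
Ifit1, chr19:34640765-34640833, plus strand: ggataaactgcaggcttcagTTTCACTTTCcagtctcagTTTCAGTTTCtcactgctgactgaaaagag
Rsad2, chr12:26456543-26456592, minus strand: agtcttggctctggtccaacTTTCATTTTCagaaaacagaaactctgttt
Gbp2, chr3:142620584-142620633, plus strand: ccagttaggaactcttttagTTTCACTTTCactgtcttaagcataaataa
Gbp3, chr3:142559979-142560034, plus strand: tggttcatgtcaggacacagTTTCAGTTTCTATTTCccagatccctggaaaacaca
Trim30a, chr7:104465200-104465249, minus strand: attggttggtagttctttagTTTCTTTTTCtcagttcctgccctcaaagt
The core stood in the promoters of 3 of 6 interferon-list genes that were higher with AMN107, of 7 of 13 that were higher with IFNa and of 15 of 34 that passed in neither direction. Promoters of Herc6, Cmpk2, Xaf1, Irf9, Irf7, Parp12, Oasl1, Tap1 and Tapbp, all named below, held no match. A match is a string in this window and not evidence of binding.

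After dim probe sets were left out (those above the median of an array on fewer than 2 of the 12), 12192 genes were tested. Signals are linear intensities, and differences are given as log2(signal + 8.66), AMN107 minus IFNa, so a negative value is a gene higher with IFNa. IFNa replicate 2 had lost signal towards the 5′ end of transcripts: its GAPDH 5′/3′ ratio was 0.0252, against 1.09 on IFNa replicate 1 and 1.16 on both AMN107 arrays. The 2 IFNa arrays differed from each other with an SD of 0.401 over genes, and the arrays of the other groups with one of 0.119 to 0.144. Each call is therefore required in the limma fit of all 12 arrays and again in one without IFNa replicate 2, where the spread of the remaining IFNa array is assumed to be that of the other groups. Of 12 fibroblast markers 8 were tested, and among the brightest were vimentin (Vim, 2786 to 4816 over the 12 arrays), Col1a2 (336 to 534), fibronectin (Fn1, 291 to 663) and Col3a1 (107 to 948). Col3a1 and Pdgfrb were lower with AMN107 than with IFNa in both fits, 0 of the 8 were higher, and the median of the 8 was -0.13. Thy1, Lum, Fap and Postn did not pass the filter, nor did the leukocyte marker Ptprc or the endothelial marker Pecam1. Some markers of other lineages did pass: 4 of 10 listed for macrophages and leukocytes, 1 of 6 for endothelium and 3 of 6 for epithelium. For muscle 3 of 5 were tested and for neurons 4 of 5. Among these, 1 neuronal marker was higher and 1 epithelial marker lower with AMN107 in both fits. In bulk RNA, fewer cells of a kind and less RNA per cell cannot be told apart.

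In the direct comparison, genes higher and lower with AMN107 were similar in number. With all arrays 1503 genes were higher with AMN107 (12.3%) and 1729 lower (14.2%), together 26.5% of genes (limma, Benjamini-Hochberg adjusted p under 0.05), and the median difference over all genes was -0.004. Against IFNa replicate 1 alone 2149 were higher (17.6%) and 2048 lower (16.8%), together 34.4%. In both fits 1312 were higher (10.8%) and 1420 lower (11.6%), together 22.4%. Both AMN107 arrays lay above both IFNa arrays in 27.1% of genes and below them in 29.8%, called or not. With all arrays 129 genes were at least 2-fold higher (1.06%) and 105 at least 2-fold lower (0.861%), together 1.92%. At least 2-fold in both fits were 67 genes higher (0.550%) and 62 lower (0.509%), together 129 or 1.06%. The 67 genes were all above DMSO with AMN107 (20.7% of all genes were), while with IFNa 53 of them did not differ from DMSO past the threshold (limma). Of the 62 lower genes, 52 lay below DMSO with AMN107 and 23 lay above DMSO with IFNa (14.0% and 12.9% of all genes). The AMN107 and IFNa arrays set against DMSO here are the ones that chose these genes. The choice therefore partly fixed these shares, and they are description only. The DMSO arrays serve both comparisons with DMSO. The counts rest on the arrays that are pooled for the spread: a fit of the 4 arrays alone called 38 genes, weighting arrays by quality called 1070, and the count was 1361 without AMN107 replicate 1, 1545 without AMN107 replicate 2 and 6131 without IFNa replicate 1. Counts of list members below are those that passed in both fits, to be read against the 10.8% and 11.6% of all tested genes. By itself, 2 arrays against 2 cannot give an exact permutation p below 0.333.

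Many of the antiviral genes that IFNa raised were also high on the AMN107 arrays, without added interferon. Usp18, the protease that removes ISG15 from proteins and damps IFNAR signalling, had signals of 68.6 and 88.5 with DMSO, 832 and 1505 with IFNa and 986 and 1232 with AMN107. Both treated groups lay far above DMSO and overlapped each other. The direct difference was -0.02 (95% interval -0.52 to 0.48, adjusted p = 0.955); against IFNa replicate 1 alone it turned to 0.40 (adjusted p = 0.0223). Herc6, the mouse ligase that attaches ISG15 to proteins, stood at 22.9 and 24.4 with DMSO, 129 and 150.3 with IFNa and 139.8 and 178 with AMN107, and the groups again overlapped at a difference of 0.17 (95% interval -0.14 to 0.48, adjusted p = 0.414). Dimmer probe sets of Herc6 gave 0.36, 0.23 and 0.40. Of 5 listed genes of the ISG15 cycle 4 were tested, and 0 passed in either direction (limma; 1 had an unadjusted p under 0.05). Isg15 itself has no probe set that names only 1 gene here.

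Further genes had a rise of at least 2-fold over DMSO in both groups (adjusted p under 0.05, limma) and a direct difference whose 95% interval lay within 2-fold. Ifit3, an antiviral relative of Ifit1, gave 30.1 and 24.5 with DMSO, 241 and 282 with IFNa and 297 and 411 with AMN107, so that AMN107 lay above IFNa on each array at 0.41 (95% interval 0.09 to 0.73, adjusted p = 0.0604). That difference passed against IFNa replicate 1 alone, at 0.52 (adjusted p = 0.00716). Cmpk2, a mitochondrial nucleotide kinase induced with the antiviral genes, read 62.1 and 47.9 with DMSO, 287 and 332 with IFNa and 228 and 413 with AMN107 and overlapped between the treatments, at -0.008 (95% interval -0.58 to 0.56, adjusted p = 0.986); a dimmer second probe set gave 0.85. For Xaf1, an interferon-induced promoter of apoptosis, IFNa lay above AMN107 on each array at -0.27 (95% interval -0.48 to -0.06, adjusted p = 0.0621). A dimmer second probe set of Xaf1 went the other way at 0.11, and at 0.63 against IFNa replicate 1 alone. Parp12, an antiviral ADP-ribosyltransferase, differed by -0.56 ± 0.16 (SE, adjusted p = 0.0289) with all arrays and by -0.28 (adjusted p = 0.0524) against replicate 1, so its call was lost there, as it was without AMN107 replicate 1 (-0.38 at adjusted p = 0.221). The RNA sensor Ddx58 (RIG-I) met the same condition at -0.40 (95% interval -0.73 to -0.07, adjusted p = 0.0718), with 0.42 and 0.09 on dimmer probe sets.

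With all arrays, the immunity-related GTPases, which attack the vacuoles of intracellular parasites, had intervals that allow less than a 2-fold difference between the treatments. Igtp (Irgm3) had 83.3 and 78.0 with DMSO, 414 and 386 with IFNa and 426 and 524 with AMN107, with a direct difference of 0.24 (95% interval 0.01 to 0.46, adjusted p = 0.11). Irgm2 differed by 0.15 (95% interval -0.11 to 0.41, adjusted p = 0.376) and Ifi47 by -0.04 (95% interval -0.47 to 0.40, adjusted p = 0.909). Irgm1, a regulator of these GTPases and of autophagy, read 103 and 86.5 with DMSO, 250.2 and 428 with IFNa and 457 and 496 with AMN107. Its difference was 0.53 (95% interval 0.10 to 0.95, adjusted p = 0.0664) and passed against IFNa replicate 1 alone at 0.90 (adjusted p = 3.45e-06). Among transcription factors of the pathway, Irf9 and Irf7 had intervals within 2-fold as well. Irf9, the DNA-binding part of ISGF3, gave 95.7 and 106 with DMSO, 227 and 363 with IFNa and 286 and 312 with AMN107 and a difference of 0.05 (95% interval -0.32 to 0.43, adjusted p = 0.843), which became 0.38 (adjusted p = 0.00395) without IFNa replicate 2. Without IFNa replicate 1 it turned to -0.27 at adjusted p = 0.0195. Irf7, which amplifies interferon production, differed by 0.24 (95% interval -0.29 to 0.76, limma adjusted p = 0.501). Its difference was 0.70 without IFNa replicate 1, so it also depended on the IFNa array used.

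**Figure D1:**
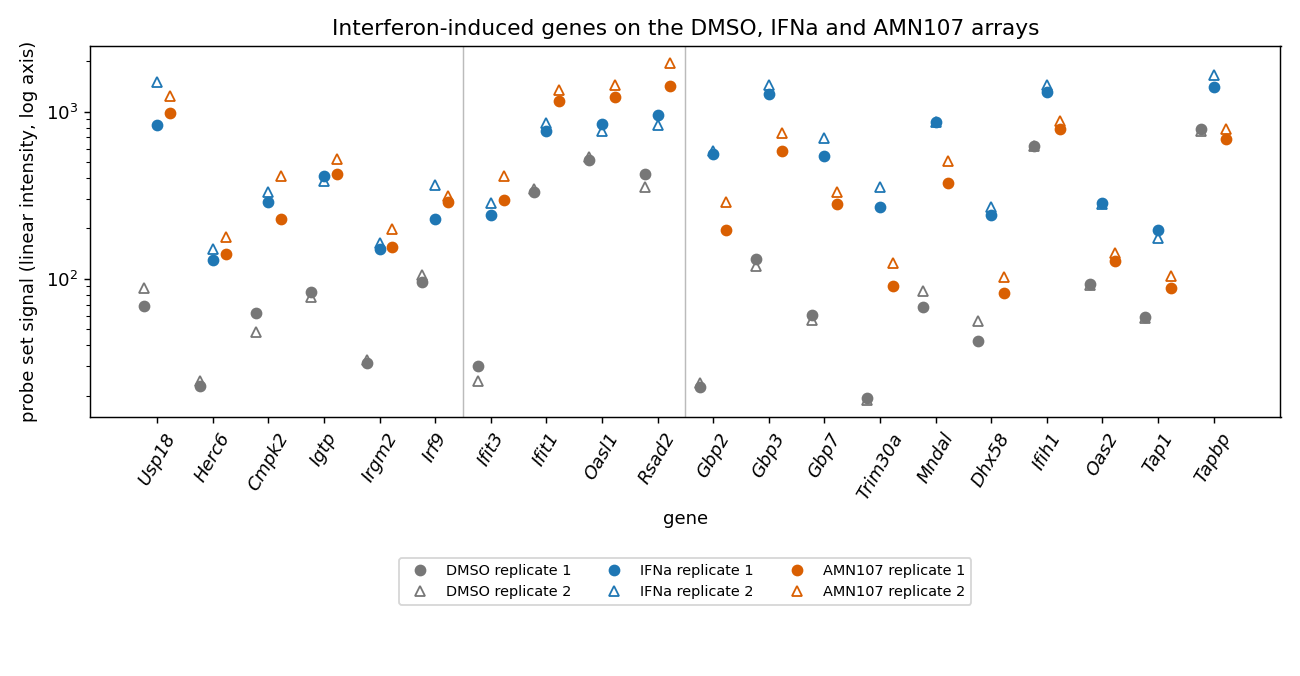
Signals (linear intensity on a log axis) of 20 interferon-induced genes on each DMSO, IFNa and AMN107 array, filled circles for replicate 1 and open triangles for replicate 2. In the left block both treatments lie above DMSO and their means within 2-fold of each other, in the middle block AMN107 is above IFNa on every array, and in the right block IFNa is above AMN107 on every array, for example Gbp2 at 555 and 584 against 197 and 289.

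Some antiviral effectors were higher with AMN107 than with interferon itself. Of 33 tested (37 listed), 5 were higher in both fits, 15.2% against 10.8% of all tested genes. The list's median difference was -0.12. That share lay near the one of all genes, so the genes below are given singly and not as a response of the list. Rsad2 (viperin), a radical-SAM enzyme that makes a chain-terminating nucleotide, had signals of 421 and 356 with DMSO, 960.4 and 834 with IFNa and 1424 and 1958 with AMN107. AMN107 was above IFNa on every array, by 0.89 ± 0.14 (SE, adjusted p = 0.0015); 2 other probe sets gave 1.33 and 0.54. Ifit1, which binds RNA lacking cap methylation, read 328 and 346 with DMSO, 767 and 853 with IFNa and 1161 and 1347 with AMN107 and was higher at 0.62 ± 0.10 (SE, adjusted p = 0.00162). Oasl1, a relative of the oligoadenylate synthetases that represses Irf7 translation, was higher at 0.73 ± 0.09 (SE, adjusted p = 0.000483). DMSO signals of Rsad2, Ifit1 and Oasl1 were 328 to 536, so these genes were well expressed without either treatment.

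Of 17 tested chemokines and cytokines (21 listed), 4 were higher and 1 lower in both fits, 23.5% and 5.88% against 10.8% and 11.6% of all tested genes. Il6 stayed dim at 5.95 and 7.33 with DMSO, 14.2 and 13.1 with IFNa and 24.9 and 32.8 with AMN107, and was higher at 0.74 ± 0.16 (SE, adjusted p = 0.00771). Cxcl12, which retains CXCR4-bearing cells, rose from 40.9 and 44.5 with IFNa to 73.1 and 62.7 with AMN107, a difference of 0.57 ± 0.11 (SE, adjusted p = 0.00362). A dimmer tested probe set of Cxcl12 gave 0.10. Cxcl10, the chemokine of activated T cells, read 967 and 947 with DMSO, 1422 and 1149.6 with IFNa and 1617 and 1935 with AMN107, with a difference of 0.47 ± 0.11 (SE, adjusted p = 0.0107). The calls of Il6 and Cxcl10 were lost without AMN107 replicate 2 (0.59 at adjusted p = 0.0752 and 0.34 at adjusted p = 0.106). Ccl8 was lower at -0.58 ± 0.10 (SE, adjusted p = 0.00216). Interferon genes themselves gave no called difference. Ifnb1 did not pass the filter (8.92 to 16.3 over the 12 arrays). Ifna1 was 38.4 and 32.3 with IFNa and 38.6 and 36.4 with AMN107. Of 14 interferon genes listed, 2 were tested and 0 passed (limma; 0 had an unadjusted p under 0.05).

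Other genes that IFNa raised were lower with AMN107, some of them at the DMSO level. Guanylate-binding proteins, large GTPases that coat pathogens, had the 3 lower genes among the interferon-inducible GTPases, of which 9 of 16 were tested, 0 were higher and 3 lower in both fits. Gbp2 had signals of 22.5 and 23.6 with DMSO, 555 and 584 with IFNa and 197 and 289 with AMN107. AMN107 stood above DMSO but below IFNa on every array, by -1.23 ± 0.14 (SE, adjusted p = 0.000325), and a second probe set gave -1.50. Gbp3 read 132 and 119 with DMSO, 1280.2 and 1437 with IFNa and 580.5 and 740.0 with AMN107 and was lower at -1.04 ± 0.12 (SE, adjusted p = 0.000347). Gbp7 was lower at -0.99 ± 0.13 (SE, adjusted p = 0.00062). These genes are close paralogs, and a probe set may take up transcripts of another. The promoters of Gbp2 and Gbp3 held the ISRE core, as did those of Igtp and Irgm1 printed with them.

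Among sensors of foreign nucleic acid, 12 of 15 were tested, 0 were higher and 6 lower in both fits, and the median difference was -0.55 (-0.32 against IFNa replicate 1 alone; -0.004 over all genes). Dhx58 (LGP2), a helicase that tunes RIG-I and MDA5, had 42.6 and 55.8 with DMSO, 241 and 267 with IFNa and 81.7 and 102 with AMN107, a gap of -1.39 ± 0.15 (SE, adjusted p = 0.000161). A dimmer tested probe set of Dhx58 gave -0.31. Ifih1 (MDA5), the sensor of long double-stranded RNA, was 626 and 621 with DMSO, 1318 and 1433 with IFNa and 787 and 876 with AMN107, lower at -0.72 ± 0.08 (SE, adjusted p = 0.000235). The HIN-domain genes Ifi204 and Mndal and the Z-nucleic-acid sensor Zbp1 lay lower too. Mndal read 67.8 and 84.6 with DMSO, 864 and 863 with IFNa and 372 and 507 with AMN107 and was lower at -0.98 ± 0.15 (SE, adjusted p = 0.00134). Ifi204 was lower at -1.47 ± 0.31 (SE, adjusted p = 0.00652) and Zbp1 at -0.95 ± 0.19 (SE, adjusted p = 0.00553); both calls were lost without AMN107 replicate 1 (-1.11 at adjusted p = 0.0722 and -0.83 at adjusted p = 0.0585).

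Within the antiviral effectors 9 were lower in both fits (11.6% of all genes were). Trim30a, a TRIM protein, had signals of 19.4 and 18.8 with DMSO, 267 and 354 with IFNa and 90.8 and 125 with AMN107, lower at -1.46 ± 0.15 (SE, adjusted p = 0.000156), with -0.81 on a second probe set. Oas2, which makes the activator of RNase L, reached 127 and 143 with AMN107 against 284 and 278 with IFNa and 92.6 and 91.8 with DMSO, a difference of -1.01 ± 0.09 (SE, adjusted p = 6.76e-05). Ifi27l2a went below DMSO: its signals were 26.5 and 27.7 with DMSO, 73.2 and 45.9 with IFNa and 9.61 and 13.2 with AMN107, which is a difference of -1.74 ± 0.18 (SE, adjusted p = 0.000145). Mx1, the influenza restriction GTPase, was dim at 11.4 and 14.5 with DMSO, 28.2 and 38.7 with IFNa and 16.3 and 17.9 with AMN107. It was lower at -0.70 ± 0.16 (SE, adjusted p = 0.00998) and lost its call without AMN107 replicate 1 (-0.65 at adjusted p = 0.0735). Its relative Mx2 differed by 0.36 (95% interval -0.01 to 0.74, adjusted p = 0.141). Oasl2 was 341 and 576 with IFNa and 272 and 318 with AMN107; the difference was -0.58 ± 0.19 (SE, adjusted p = 0.0467), and -0.21 (adjusted p = 0.128) against replicate 1. Leaving out any 1 of 11 arrays ended this call (adjusted p up to 0.239).

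Of 14 tested genes of MHC class I presentation (19 listed), 2 were higher and 3 lower in both fits, 14.3% and 21.4% against 10.8% and 11.6% of all tested genes, with a median of -0.08. Tapbp (tapasin), which bridges class I molecules to the transporter, read 785 and 761 with DMSO, 1399 and 1649 with IFNa and 686 and 784 with AMN107. With AMN107 it did not differ from DMSO past the test (-0.08, adjusted p = 0.61), and it was lower than with IFNa at -1.04 ± 0.11 (SE, adjusted p = 0.000156); a dimmer second probe set gave 0.40. Tap1, a chain of the peptide transporter, had 59.2 and 58.6 with DMSO, 195 and 175 with IFNa and 88.6 and 104 with AMN107 and was lower at -0.89 ± 0.11 (SE, adjusted p = 0.000475). Pdia3, the disulfide isomerase of the same loading complex, ran the other way at 752 and 918 with DMSO, 1093 and 1237 with IFNa and 1862 and 1966 with AMN107, higher at 0.71 ± 0.10 (SE, adjusted p = 0.000837). The class I heavy chain H2-K1 differed by 0.20 (95% interval -0.06 to 0.45, adjusted p = 0.239), and by 0.42 (adjusted p = 0.000162) against IFNa replicate 1. Class I heavy chains are close paralogs, so the signal of one gene may include another.

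Of 17 tested signalling genes (18 listed), 3 were higher and 2 lower in both fits (17.6% and 11.8%). Of 9 tested feedback inhibitors (9 listed) 1 was higher and 2 lower (11.1% and 22.2%). Of all tested genes 10.8% were higher and 11.6% lower. Stat2 was higher at 0.45 ± 0.15 (SE, adjusted p = 0.046), a call lost when any 1 of 8 arrays was left out (most without AMN107 replicate 2, 0.23 at adjusted p = 0.339). Irf1, the first factor of the interferon-gamma response, differed by -0.30 (95% interval -0.57 to -0.04, adjusted p = 0.082). The receptor chain Ifngr2 was higher at 0.61 ± 0.19 (SE, adjusted p = 0.0346) and its partner Ifngr1 lower at -0.56 ± 0.10 (SE, adjusted p = 0.00351). The call of Ifngr2 was lost when any 1 of 9 arrays was left out, among them both AMN107 arrays (0.61 at adjusted p = 0.14 and 0.62 at adjusted p = 0.134), and a second probe set gave -0.08. Of the JAK inhibitors induced by cytokines, Socs1 read 33.0 and 43.9 with DMSO, 44.3 and 24.8 with IFNa and 74.6 and 72.5 with AMN107, higher with AMN107 at 0.97 ± 0.18 (SE, adjusted p = 0.00348). Socs3 read 98.8 and 99.9 with DMSO, 106 and 139 with IFNa and 55.3 and 56.7 with AMN107, lower at -1.01 ± 0.13 (SE, adjusted p = 0.000556), with -0.18 and -1.36 on 2 other probe sets.

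Gene sets were also chosen on arrays that take no part in the direct comparison. The AMN107-IFNa cells had received AMN107 too, so that set holds genes raised by AMN107 with or without interferon, B4galnt2 among them, and its direction is given as a description. The ISRE core stood in 35 of the 237 promoters found for it. Of 299 genes at least 2-fold above DMSO on the AMN107-IFNa arrays, 182 were higher with AMN107 alone than with IFNa alone and 23 lower in both fits, with a median of 0.65 (0.81 against IFNa replicate 1). Of 49 genes at least 2-fold below DMSO there, 46 were lower with AMN107 and 0 higher, with a median of -1.20. Of 156 genes at least 2-fold above DMSO on the IFNg arrays, 33 were higher and 29 lower in both fits; the median was 0.01, and for 69.9% the 95% interval lay within 2-fold (92.0% of all genes). In the fit without IFNa replicate 2 this set had 59 genes higher and 34 lower, with a median of 0.09. Without IFNa replicate 1 it had 39 higher and 60 lower, with a median of -0.12, so its balance turned with the IFNa array used.

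What AMN107 added was led by genes that IFNa left at the DMSO level. B4galnt2, a glycosyltransferase, had signals of 42.7 and 35.8 with DMSO, 44.2 and 32.2 with IFNa and 347 and 347 with AMN107, a difference of 2.94 ± 0.14 (SE, adjusted p = 1.33e-06); 2 dimmer probe sets gave 0.85 and 0.87. Car6, the secreted carbonic anhydrase, went from 11.7 and 10.8 with IFNa to 90.7 and 92.9 with AMN107, higher at 2.34 ± 0.08 (SE, adjusted p = 4.3e-07). Iah1, an esterase, rose from 336 and 277 to 1425 and 1537, a difference of 2.25 ± 0.10 (SE, adjusted p = 1.11e-06); its other tested probe sets gave 1.80 and, on a dim one, -0.17. In these 3 genes the IFNa and DMSO signals lay close together. Babam2, a subunit of the BRCA1-A and BRISC deubiquitinase complexes, was higher at 1.83 ± 0.08 (SE, adjusted p = 1.02e-06), with 3.59 on a second probe set. Angptl6 was higher at 1.77 ± 0.15 (SE, adjusted p = 5.45e-05) and Echs1, an enoyl-CoA hydratase of fatty acid oxidation, at 1.73 ± 0.14 (SE, adjusted p = 3.81e-05). The remaining 4 of the 12 highest beside Atf5 and Aldh1l2 were Tmem120a, Mbd3, Dapk3 and Rabac1, and their size rested on IFNa replicate 2. For Tmem120a that array read 39.0 where replicate 1 read 203, and the difference fell from 2.37 to 1.30 (adjusted p = 3.79e-08) without it. Mbd3 went from 2.19 to 0.97 (adjusted p = 2.53e-06), Dapk3 from 1.82 to 1.07 (adjusted p = 4.03e-06) and Rabac1 from 1.79 to 0.55 (adjusted p = 6.08e-05). The call of Rabac1 was lost when any 1 of 10 arrays was left out. The calls of Mbd3 and Rabac1 were lost without either AMN107 array (2.18 at adjusted p = 0.0799 and 2.20 at adjusted p = 0.0734 for Mbd3, 1.75 at adjusted p = 0.144 and 1.82 at adjusted p = 0.128 for Rabac1).

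**Figure D2:**
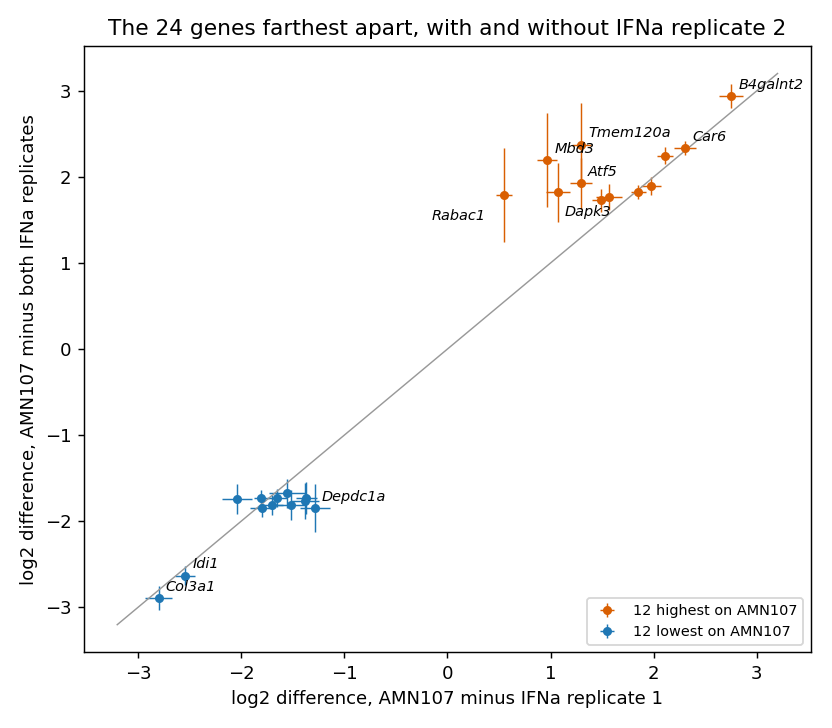
Log2 difference AMN107 minus IFNa of the 12 highest and 12 lowest genes, computed with both IFNa arrays (vertical) and with IFNa replicate 1 alone (horizontal); bars are limma standard errors and the line marks equality. B4galnt2, Car6, Idi1 and Col3a1 lie near the line, while Tmem120a, Mbd3 and Rabac1 lie well above it.

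Amino acid and one-carbon genes controlled by ATF4, the factor of the integrated stress response, were more often higher than lower with AMN107. All 26 listed genes were tested; 11 were higher and 1 lower in both fits (10.8% and 11.6% of all genes), with a median of 0.31. Aldh1l2, the mitochondrial formyltetrahydrofolate dehydrogenase, had 300.5 and 262 with DMSO, 349 and 388 with IFNa and 1436 and 1354 with AMN107 and led the list at 1.90 ± 0.10 (SE, adjusted p = 3.65e-06). Cth, which makes cysteine from cystathionine, read 254 and 261 with DMSO, 381 and 653 with IFNa and 1334 and 1312 with AMN107, so IFNa lay between DMSO and AMN107 on both arrays; the difference was 1.39 ± 0.19 (SE, adjusted p = 0.00068). Psph, the last step of serine synthesis, was higher at 1.13 ± 0.07 (SE, adjusted p = 8.98e-06) and Ddit3 (CHOP) at 1.03 ± 0.16 (SE, adjusted p = 0.00131). The related factor Atf5 was 344 and 138 with IFNa and 869.7 and 840.0 with AMN107, a difference of 1.92 ± 0.30 (SE, adjusted p = 0.00138), or 1.29 (adjusted p = 3.55e-07) against replicate 1. The amino acid response element was searched as TGATGNAA on both strands, and the promoters of Psph, Ddit3 and Atf5 held no match. It stood in 8 of 22 promoters of the list, in 4.51% of the promoter table and in 2.61% of tested genes, and it was present where signals differed (Asns, 0.32, adjusted p = 0.0195) and where the test was not passed (Slc7a11, 0.15, adjusted p = 0.693; Chac1, 0.01, adjusted p = 0.915); matches are in capitals. The call of Asns was lost without either AMN107 array (0.30 at adjusted p = 0.118 and 0.33 at adjusted p = 0.0828).
Asns, chr6:7693205-7693252, minus strand: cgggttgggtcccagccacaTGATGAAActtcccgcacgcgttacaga
Slc7a11, chr3:50443633-50443699, minus strand: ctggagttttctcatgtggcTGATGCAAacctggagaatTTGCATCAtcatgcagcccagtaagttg
Chac1, chr2:119351029-119351076, plus strand: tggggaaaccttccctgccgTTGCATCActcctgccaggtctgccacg

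Part of the autophagy list was higher too. Of 17 tested (18 listed), 7 were higher and 1 lower in both fits, with a median of 0.24. Sqstm1 (p62), the receptor that delivers ubiquitinated cargo, had 479 and 490.4 with DMSO, 574 and 557 with IFNa and 1550.3 and 1588 with AMN107, higher at 1.46 ± 0.07 (SE, adjusted p = 1.71e-06). The ATG8 family members Map1lc3a and Gabarap, which coat the autophagosome, were higher at 0.83 ± 0.11 (SE, adjusted p = 0.00047) and 1.23 ± 0.25 (SE, adjusted p = 0.00581); Gabarap read 339 on IFNa replicate 2 and 744 on replicate 1, and its difference was 0.67 (adjusted p = 1.55e-06) without replicate 2. Becn1 was lower at -0.69 ± 0.16 (SE, adjusted p = 0.011), a call lost without AMN107 replicate 1 (-0.65 at adjusted p = 0.0825); its other tested probe sets gave 0.06 and 0.26. In the lysosome list 4 of 20 tested genes were higher and 2 lower in both fits, 20% and 10% against 10.8% and 11.6% of all tested genes, and the median was 0.08. Atp6v0d1, a subunit of the proton pump, led it at 156 and 161 with DMSO, 182 and 222 with IFNa and 495 and 477 with AMN107, higher at 1.24 ± 0.10 (SE, adjusted p = 4.21e-05). Its promoter holds the CLEAR element bound by TFEB, searched as TCACGTGA (its own reverse complement). The element was found in 6 of 16 promoters of the list, in 1.12% of the promoter table and in 2.13% of tested genes. In the autophagy list it stood in 0 of 13 promoters, that of Sqstm1 included.
Atp6v0d1, chr8:105566041-105566088, minus strand: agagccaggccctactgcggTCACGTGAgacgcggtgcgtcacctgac

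Among genes of the early transcriptional response, 14 of 16 were tested and 7 were higher and 2 lower in both fits, with a median of 0.32. Klf6 read 120.3 and 181 with DMSO, 209.6 and 308 with IFNa and 743 and 741 with AMN107 and was higher at 1.52 ± 0.19 (SE, adjusted p = 0.000389), but 3 other tested probe sets gave 1.04, -0.18 and -0.49, and averaging them lost the call (0.47 at adjusted p = 0.188). Ier2 was higher at 1.14 ± 0.15 (SE, adjusted p = 0.000508) and Klf2, a shear-responsive factor, at 0.81 ± 0.11 (SE, adjusted p = 0.000661). Egr1, the classical serum-response gene, differed by 0.39 (95% interval 0.01 to 0.76, adjusted p = 0.119), and by 0.62 (adjusted p = 0.00207) against IFNa replicate 1. Of 11 tested ERK feedback genes (12 listed) 2 were higher and 1 lower, 18.2% and 9.09% against 10.8% and 11.6% of all tested genes. The ERK phosphatases Dusp4 and Dusp5 were higher at 0.92 ± 0.12 (SE, adjusted p = 0.000501) and 0.61 ± 0.12 (SE, adjusted p = 0.00539). Of 11 tested SRF and YAP targets (14 listed) 3 were higher and 2 lower (27.3% and 18.2%). Ankrd1, a YAP target, had 300.2 and 348 with DMSO, 402 and 396 with IFNa and 1068 and 1049 with AMN107, higher at 1.39 ± 0.11 (SE, adjusted p = 4.86e-05), with 0.39 on a second probe set.

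Cholesterol synthesis had the lowest median of the gene lists. In this pathway acetyl-CoA is built through mevalonate and squalene to cholesterol under the control of SREBF2. Of 17 tested genes (20 listed), 13 were lower and 0 higher in both fits, and the list's median was -1.26 (-1.38 against IFNa replicate 1 alone). Averaging the probe sets of each gene gave -0.85. Hmgcs1, which makes HMG-CoA, had 1499 and 1416 with DMSO, 1605 and 1439 with IFNa and 449 and 459.5 with AMN107, lower at -1.72 ± 0.09 (SE, adjusted p = 1.68e-06), and its 3 other tested probe sets gave -1.48 to -2.28. Idi1, which isomerises isopentenyl diphosphate, read 1376 and 1297 with DMSO, 1609.8 and 1828 with IFNa and 249.8 and 291 with AMN107, lower at -2.63 ± 0.11 (SE, adjusted p = 7.23e-07), with -3.02 on a second probe set. Lss, which closes the sterol rings, was lower at -1.47 ± 0.09 (SE, adjusted p = 8.25e-06), and Cyp51, which removes the lanosterol methyl group, at -1.81 ± 0.11 (SE, adjusted p = 8.25e-06). In these 4 genes the AMN107 arrays lay below every IFNa array.

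Fdps, which makes farnesyl diphosphate, is named after its values were seen because 1 array sets its result. It read 1775 and 1601 with DMSO, 1789.9 and 220.3 with IFNa and 527 and 491 with AMN107. With both IFNa arrays the difference was -0.31 (95% interval -1.77 to 1.14, adjusted p = 0.761); without replicate 2 it was -1.80 (adjusted p = 6.03e-09), and without replicate 1 it turned to 1.18 at adjusted p = 1.39e-07. Of 10 tested genes that sense, take up or export sterol (15 listed), 4 were lower and 0 higher in both fits (11.6% and 10.8% of all tested genes), with a median of -0.14. Insig1, which retains SREBF in the endoplasmic reticulum, was 339 and 387 with IFNa and 155 and 151 with AMN107, lower at -1.20 ± 0.12 (SE, adjusted p = 0.000125). Srebf2 itself was lower at -0.98 ± 0.09 (SE, adjusted p = 0.000105) and the exporter Abcg1 at -0.97 ± 0.18 (SE, adjusted p = 0.00357). The sterol carrier Stard4 read 356 and 335 with IFNa and 166.1 and 171 with AMN107 and was lower (adjusted p = 8.5e-05). The desaturase Scd2 had 1858 and 1626 with DMSO, 1735 and 1954 with IFNa and 547 and 549 with AMN107, lower at -1.73 ± 0.10 (SE, adjusted p = 5.64e-06), with -0.23 and -0.71 on dimmer probe sets. Of 12 tested fatty acid genes (12 listed) 4 were lower and 1 higher. Scd1 was lower at -0.91 ± 0.10 (SE, adjusted p = 0.000198) and the elongase Elovl6 at -0.91 ± 0.11 (SE, adjusted p = 0.000425). On dimmer tested probe sets Scd1 gave -0.79 and Elovl6 -0.41.

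The sterol response element, searched as TCACNCCAC on both strands, stood in 1 of 14 promoters of the synthesis list, in 1.44% of the promoter table and in 1.42% of tested genes. It is printed for that gene, Hmgcs1, with the match in capitals; variants of the element were not searched.
Hmgcs1, chr13:119690194-119690242, plus strand: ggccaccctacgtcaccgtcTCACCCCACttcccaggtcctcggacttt

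**Figure D3:**
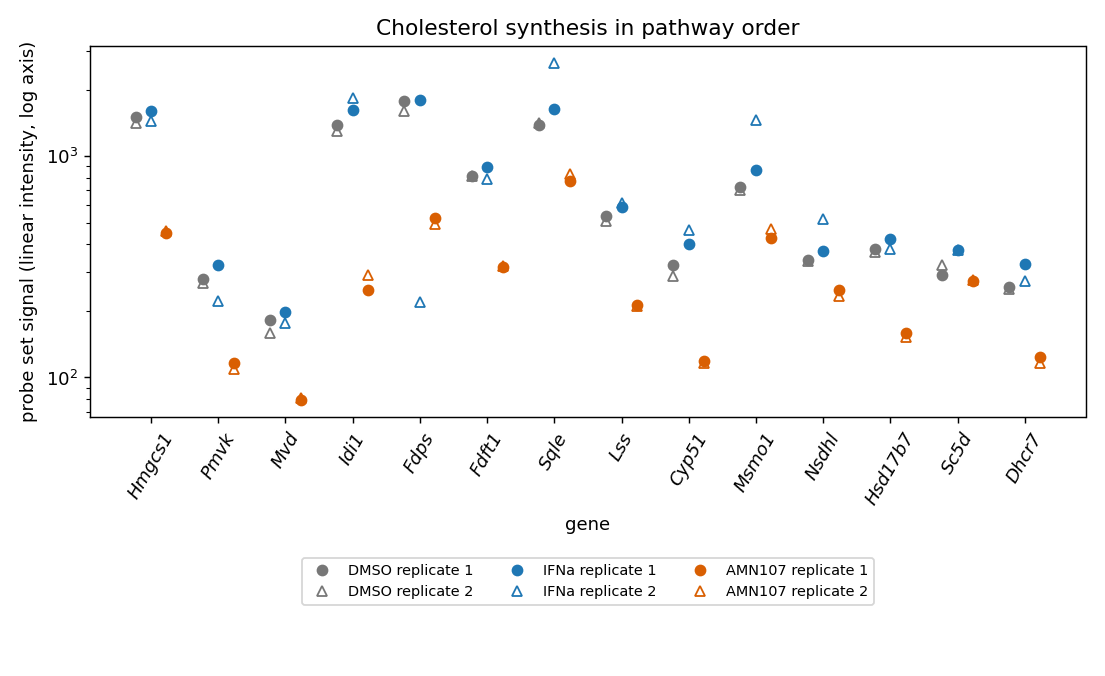
Signals (linear intensity on a log axis) of 14 cholesterol synthesis genes in pathway order on each DMSO, IFNa and AMN107 array, filled circles for replicate 1 and open triangles for replicate 2. The AMN107 arrays lie below both IFNa arrays in 13 of the 14; in Fdps IFNa replicate 2, at 220.3, lies below AMN107.

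Col3a1, a fibrillar collagen, had 617 and 567 with DMSO, 831 and 948 with IFNa and 107 and 117 with AMN107 and the largest fall of any gene that met the naming conditions, -2.89 ± 0.14 (SE, adjusted p = 1.55e-06) (-2.01 on a dimmer probe set). Of 14 tested collagens (16 listed) 4 were lower and 1 higher in both fits. The median was -0.23, and Col1a1 and Col1a2 did not pass the test. Of 16 tested matrix genes (26 listed) 1 was higher and 2 lower, 6.25% and 12.5% against 10.8% and 11.6% of all tested genes, and Bgn (biglycan) was lower at -0.69 ± 0.08 (SE, adjusted p = 0.000255). Pdgfrb, a receptor kinase that nilotinib binds, read 101 and 90.4 with DMSO, 117 and 119 with IFNa and 28.4 and 40.2 with AMN107, lower at -1.57 ± 0.17 (SE, adjusted p = 0.000203), with -0.21 on a dimmer probe set. Ddr1, the collagen receptor kinase, read 269 and 245 with IFNa and 128 and 119.8 with AMN107 and was lower (adjusted p = 8.11e-05), and its other tested probe sets ran from -0.84 to 0.40. The remaining targets did not pass the test: Abl1 differed by -0.19 (95% interval -0.37 to -0.01, adjusted p = 0.104), Abl2 by -0.14 (95% interval -0.35 to 0.06, adjusted p = 0.29), Pdgfra by 0.09 (95% interval -0.21 to 0.40, adjusted p = 0.668), Ddr2 by -0.12 (95% interval -0.33 to 0.10, adjusted p = 0.405) and Csf1r by 0.08 (95% interval -0.11 to 0.28, adjusted p = 0.521). For Abl2 a dimmer tested probe set gave 0.9992 and another -0.01, and the former gave 1.45 against IFNa replicate 1 alone. Of 7 tested targets (8 listed) 2 were thus lower and 0 higher. Of 12 tested partners and substrates of ABL (12 listed) 5 were lower and 1 higher, led by Abi2 at -0.71 ± 0.17 (SE, adjusted p = 0.0125) and, on the higher side, by the adaptor Nck1 at 0.59 ± 0.09 (SE, adjusted p = 0.00161). The call of Abi2 was lost without either AMN107 array (-0.74 at adjusted p = 0.0603 and -0.67 at adjusted p = 0.0816). Stat5b was lower at -0.62 ± 0.11 (SE, adjusted p = 0.00327). On second probe sets Stat5b gave 0.21 and Nck1 -0.30, and both calls were lost when the probe sets of a gene were averaged (-0.20 at adjusted p = 0.0714 and 0.14 at adjusted p = 0.245). Levels of mRNA do not measure kinase activity.

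Of 17 tested replication genes (17 listed), 10 were lower and 1 higher in both fits. The median was -0.41, and -0.23 against IFNa replicate 1 alone. Cdc6, which loads the replicative helicase, read 353 and 356 with DMSO, 411 and 535 with IFNa and 254 and 266 with AMN107, lower at -0.83 ± 0.12 (SE, adjusted p = 0.000802). With AMN107 both arrays were below DMSO, and with IFNa both were above it. Ccne2 was lower at -1.14 ± 0.25 (SE, adjusted p = 0.00879), or -0.67 (adjusted p = 0.00265) against replicate 1, and its call was lost without AMN107 replicate 1 (-1.11 at adjusted p = 0.0617). Of 15 mitotic genes 3 were higher and 5 lower, 20% and 33.3% against 10.8% and 11.6% of all tested genes. Their median was -0.19, and -0.02 against IFNa replicate 1 alone. Aurka was among the higher ones at 0.75 ± 0.10 (SE, limma adjusted p = 0.000516). Of 15 tested hypoxia and glycolysis genes (17 listed) 6 were lower and 0 higher, led by the prolyl hydroxylase Egln3 at -0.99 ± 0.13 (SE, adjusted p = 0.000556) and the glucose transporter Slc2a1 at -0.88 ± 0.13 (SE, adjusted p = 0.00091). Of 11 tested p53 targets (12 listed), Gadd45a was higher at 0.89 ± 0.13 (SE, adjusted p = 0.00124) and Ccng1 lower at -1.11 ± 0.11 (SE, adjusted p = 0.000125). Other genes among the 12 lowest were Cldn9, a tight-junction claudin, at -1.84 ± 0.11 (SE, adjusted p = 5.64e-06) (0.45 on a dimmer probe set), Phex at -1.81 ± 0.17 (SE, adjusted p = 0.000108), the amino acid transporter Slc38a4 at -1.73 ± 0.19 (SE, adjusted p = 0.000198), Lmo7 at -1.67 ± 0.17 (SE, adjusted p = 0.000134), Styk1 at -1.77 ± 0.21 (SE, adjusted p = 0.000333) and Depdc1a at -1.85 ± 0.28 (SE, adjusted p = 0.00131). In Depdc1a, Styk1 and Slc38a4 IFNa replicate 2 was the higher IFNa array, and the differences against replicate 1 were -1.29, -1.38 and -1.37. A dimmer probe set of Lmo7 gave -0.28.

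Of 13 tested ER chaperone genes (13 listed) 3 were higher and 2 lower in both fits, 23.1% and 15.4% against 10.8% and 11.6% of all tested genes. Pdia6, a disulfide isomerase, read 542 and 573 with DMSO, 613 and 524 with IFNa and 1176 and 1244 with AMN107, higher at 1.08 ± 0.10 (SE, adjusted p = 0.000108), while Herpud1, a factor of ER-associated degradation, was lower at -0.50 ± 0.13 (SE, adjusted p = 0.0155), and -0.05 on a second probe set. The call of Herpud1 was lost without either AMN107 array (-0.50 at adjusted p = 0.0861 and -0.50 at adjusted p = 0.084). Of 11 tested NRF2 targets (14 listed) 3 were higher and 3 lower, each 27.3% against 10.8% and 11.6% of all tested genes, with Hmox1 (heme oxygenase) at 0.75 ± 0.20 (SE, adjusted p = 0.0207) and Gsr (glutathione reductase) at -0.80 ± 0.17 (SE, adjusted p = 0.00613), where a second probe set of Gsr gave 0.63 and the average of both -0.09 at adjusted p = 0.413. Without AMN107 replicate 2 Hmox1 no longer passed (0.60 at adjusted p = 0.148). Of 4 tested complement genes (9 listed) 2 were lower: C1ra, a starter protease of the classical pathway, read 18.1 and 17.8 with DMSO, 36.1 and 35.2 with IFNa and 21.5 and 21.7 with AMN107, lower at -0.55 ± 0.09 (SE, adjusted p = 0.00142). Of 9 tested cell death and checkpoint ligands (14 listed) 0 passed in both fits (limma; 1 had an unadjusted p under 0.05).

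**Figure D4:**
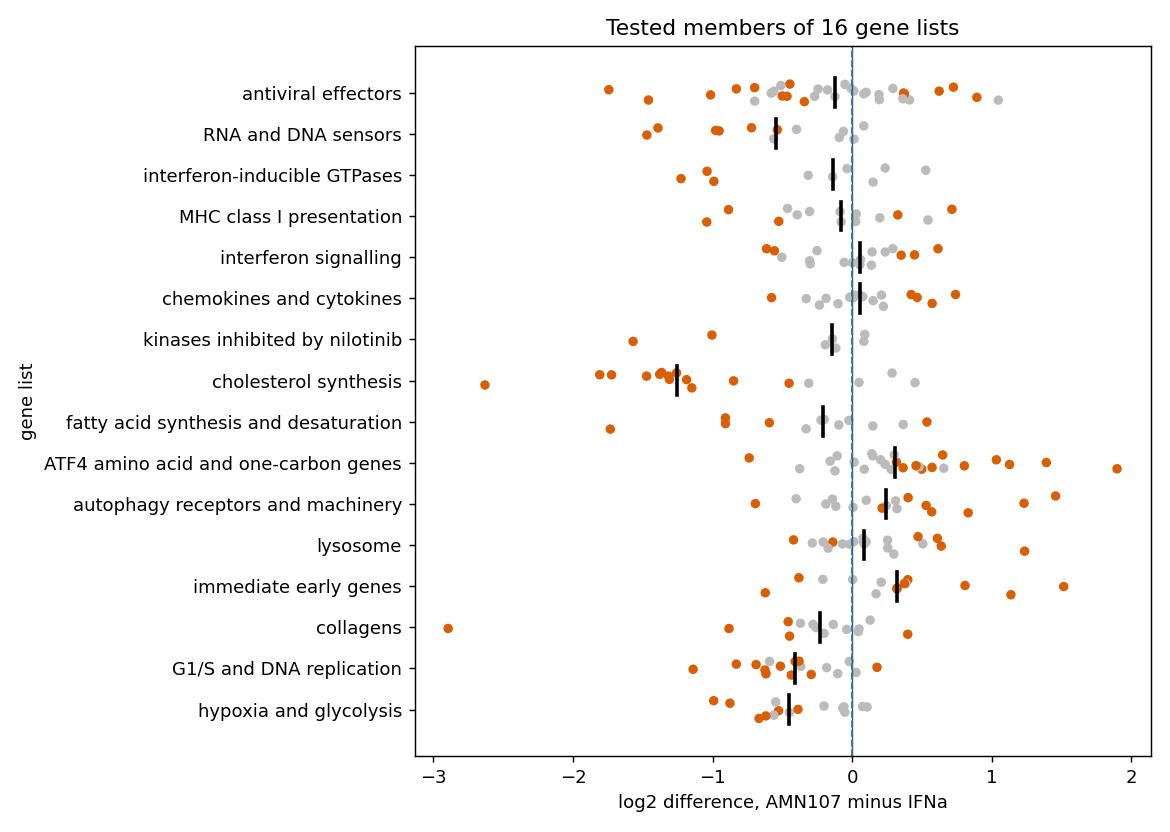
Log2 difference AMN107 minus IFNa for the tested members of 16 gene lists; orange points passed in both fits, grey points did not, black bars are list medians and the dashed line is the median of all genes. Cholesterol synthesis has the lowest median of the lists drawn (-1.26), and the antiviral effectors reach to both sides of 0 (-1.74 to 1.05).

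AMN107 can also be set against its absence in cells that were not part of the direct comparison, as AMN107-IFNg against IFNg. This is a different contrast: both of its groups received interferon, while in the direct comparison only the IFNa group did. In AMN107-IFNg against IFNg 19.1% of genes were called (13.4% higher, 5.76% lower). Of the 67 genes at least 2-fold higher with AMN107 than with IFNa, 59 were higher there and 0 lower, with a median of 1.10. Of the 62 lower genes, 46 were lower there and 5 higher, with a median of -0.81; the median of all genes was 0.01. B4galnt2 differed there by 2.99 (adjusted p = 9.25e-07), Iah1 by 2.73 (adjusted p = 4.71e-07), Idi1 by -2.60 (adjusted p = 4.71e-07) and Col3a1 by -1.94 (adjusted p = 1.64e-05). The genes that went the other way included interferon genes that were higher with IFNa than with AMN107: Trim30a was higher there at 1.53 (adjusted p = 0.0001), Dhx58 by 0.90 (adjusted p = 0.00202) and Oas2 by 0.78 (adjusted p = 0.000256). Gbp2 differed by 0.07 (adjusted p = 0.767), and this did not pass the test. The 2 comparisons share no array, but they are different contrasts and their interferons differ.

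**Figure D5:**
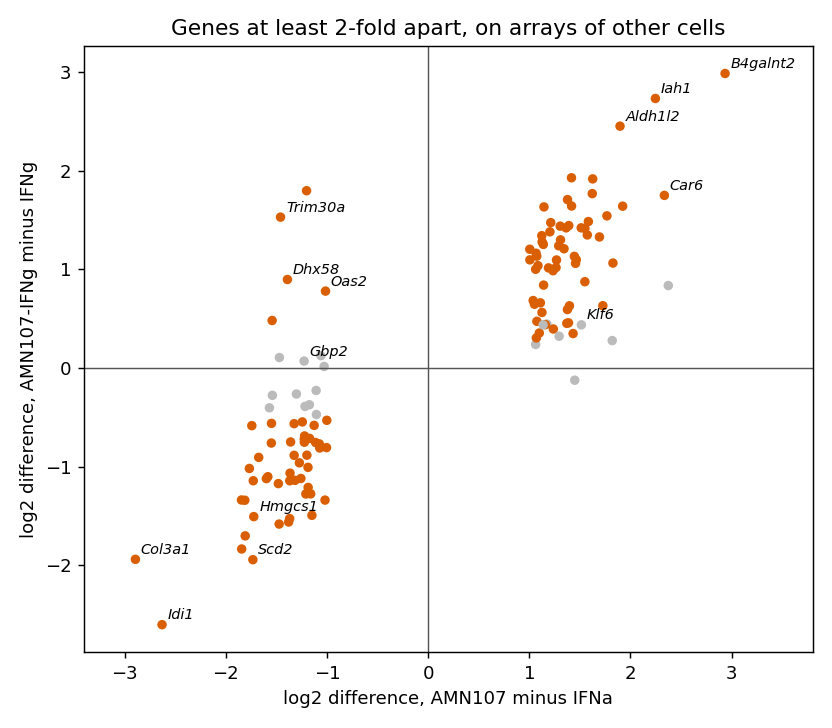
The 129 genes at least 2-fold apart between AMN107 and IFNa in both fits (horizontal, log2), against AMN107-IFNg minus IFNg (vertical, log2), which uses no array of the horizontal axis; orange points had an adjusted p under 0.05 on the vertical axis. B4galnt2 and Idi1 lie at opposite ends, and Trim30a, Dhx58 and Oas2 lie in the upper left.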

How the data were processed

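The deposited values are probe set intensities (linear signals) that the authors made from Affymetrix arrays with MAS5, named without a version in the submitters' processing notes. Gene symbols came from the platform annotation, checked against RefSeq GRCm38.p6; probe sets of several genes or none were left out. Values were analysed as log2(signal + 8.66), the added value being the mean over arrays of the signal's 25th percentile. The brightest probe set stood for a gene. limma 3.58.1 (R 4.3.3) was fitted to all 12 arrays with 1 mean per group and a trended eBayes, and again without IFNa replicate 2; p-values were adjusted over 12192 genes. The procedure was run on simulated data in which IFNa replicate 2 was given extra random noise. Loss of signal towards the 5′ end was not simulated, so that run does not measure what this loss does to the calls. Precision is limited by having 2 arrays a group.

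The groups, the gene lists and their members were chosen with earlier results of these data known. Genes named are the 12 highest and 12 lowest in both fits whose arrays do not overlap, up to 4 per list, genes shared by both treatments and a set chosen whatever its values; Fdps, Ifih1, Oasl1, Herpud1 and further list members used as examples were added after their values were seen. Replicate numbers were not treated as pairs in the main fit. Deviations of AMN107 and IFNa arrays of the same number correlated at 0.204, within -0.143 to 0.312 over 15 pairs of groups. These correlations cannot show whether samples of the same number were paired. Alternatives changed the scaling, the added value, the filter, the spread, the weights, the block, the probe set rule and the arrays left out.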

Additional observations from a re-analysis of the deposited data

How the results depend on the processing

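The counts depended most on which arrays gave the spread. The fit of the 4 AMN107 and IFNa arrays alone called 38 genes, all at least 2-fold apart and all called without IFNa replicate 2, against 3232, 234 and 2732 in the fit of 12 arrays. Array weights gave 1070 genes and 1044 in both fits. Leaving out 1 array gave 1361 to 6131 genes past the test, 180 to 629 of them at least 2-fold apart, and 1347 to 2664 in both fits; all 3 lowest counts came without AMN107 replicate 1, and the highest without IFNa replicate 1 for the first and second count. The median over genes raised on AMN107-IFNa arrays lay between 0.48 without IFNa replicate 1 and 0.82 without IFNa replicate 2. With the replicate block, 3296 genes passed, 238 at least 2-fold apart and 2703 in both fits, and among 158 genes followed only Xaf1 changed its call.

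Of these 158 genes 130 passed in the fit of 12 arrays. The call was lost for 114 in the fit of 4 arrays, 36 with array weights, 19 with probe sets averaged, 29 without AMN107 replicate 1 and 21 without AMN107 replicate 2. Scaling and the added value moved few: quantile normalization lost 1 call and gained 4, and centring on the median lost 1. Direction turned for Usp18 (-0.45 without IFNa replicate 1, 0.40 without replicate 2), Irf9 (-0.27 and 0.38) and Fdps (1.18 and -1.80), depending on which IFNa array was left out; the cause was not tested. Medians over the chosen gene sets were not computed in the fit of 4 arrays, which holds none of the arrays that chose them. Signals near the added value of 8.66 give differences that understate the fold.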
